A study of Mus musculus with 9 samples.

Results

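The miR-181 family is a group of small RNAs made from 6 hairpins in the mouse, and its arms were followed here across libraries of subcutaneous adipose tissue (fat from beneath the skin) of mice with and without a knockout of Ago1 in endothelial cells. Members were found by exact name: all 7 names sought (the 5p arms of miR-181a, miR-181b, miR-181c and miR-181d, and the 3p arms miR-181a-1-3p, miR-181a-2-3p and miR-181c-3p) were listed among the 860 mature miRNAs of the files. Small RNA was sequenced from 9 mice, 3 of each genotype: WT littermates, Hete KO and Homo KO, the knockout being described as endothelial (EC-AGO1-KO). All animals, controls included, were 24 weeks old and had received a diet rich in fat and sucrose from 8 weeks of age for 16 weeks. The promoter that drives the endothelial deletion, the sex and the strain of the mice are not stated in the labels, and the files hold mature miRNAs alone, so the loss of Ago1 could not be checked.

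A miRNA hairpin is cut into a 5p and a 3p arm, of which one usually stays in an Argonaute protein as the guide and the other, the passenger, is mostly degraded. Ago1 encodes one of the mammalian Argonautes. Guide strands find target mRNAs mainly through the seed, the bases near their 5′ end. In endothelial cells, miR-181b is known to lower the importin that carries NF-κB into the nucleus, and with it adhesion molecules such as VCAM1 that draw leukocytes to the vessel wall; in endothelium of white fat of obese mice it has been reported to act on the phosphatase Phlpp2 and so on Akt signalling. miR-181a is best known from lymphocytes, where it sets the sensitivity of the T cell receptor. Since whole tissue was sequenced, fewer cells of a type and less miRNA per cell cannot be told apart in any of the values below.

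The mature sequences are shown because they define which members share a seed and which can share reads. RefSeq entries on GRCm38.p6 matched 7 of the 7 members. Capitals mark the seed, bases 2 to 8, and each sequence runs from 5′ to 3′.
miR-181a-5p: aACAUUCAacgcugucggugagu
miR-181b-5p: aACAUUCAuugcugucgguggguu
miR-181c-5p: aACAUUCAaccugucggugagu
miR-181d-5p: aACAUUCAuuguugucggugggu
miR-181a-1-3p: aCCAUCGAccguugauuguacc
miR-181c-3p: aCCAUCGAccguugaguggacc
miR-181a-2-3p: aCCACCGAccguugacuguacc

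The 4 arms from the 5p side share the seed ACAUUCA, and of the 698 listed miRNAs with a RefSeq sequence these 4 alone carry it. miR-181b-5p and miR-181d-5p differ by 1 substitution over their shared length, C12U, counted from 1 at the 5′ end of miR-181b-5p. miR-181a-5p and miR-181b-5p differ by A9U, C10U and A21G, and miR-181c-5p is miR-181a-5p with 1 base missing. Among the 3p arms, miR-181a-1-3p and miR-181c-3p have the seed CCAUCGA, while miR-181a-2-3p has CCACCGA through the substitution U5C. How reads that match several of these sequences were assigned is not stated in the sources at hand, so the split between miR-181b-5p and miR-181d-5p carries that uncertainty.

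Both miR-181a hairpins are printed because they show why the 5p arm cannot be traced to a locus and the 3p arm can. Capitals mark the 2 mature arms.
Mir181a-1: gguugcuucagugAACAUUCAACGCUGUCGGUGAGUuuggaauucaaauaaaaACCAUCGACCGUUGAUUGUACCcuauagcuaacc
Mir181a-2: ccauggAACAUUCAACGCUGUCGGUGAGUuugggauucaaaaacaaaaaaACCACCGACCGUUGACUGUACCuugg

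By GENCODE vM21, which annotates GRCm38 (mm10), Mir181a-1 lies on the plus strand of chromosome 1, from 137966455 to 137966541, and Mir181b-1 follows at 137966639 to 137966718. Both overlap an exon of A430106G13Rik, a long noncoding RNA gene of the same strand. Mir181a-2 (chromosome 2, 38852735 to 38852810) and Mir181b-2 (38853830 to 38853918) sit on the plus strand, opposite an intron of Nr6a1, which encodes an orphan nuclear receptor. Mir181c (chromosome 8, 84178873 to 84178961) and Mir181d (84178716 to 84178787) lie on the minus strand in an intron of Nanos3, on the same strand as that gene. The values of miR-181a-5p and miR-181b-5p are therefore sums over the loci on chromosomes 1 and 2.

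The deposited values behave as log2(x + 1) values brought close to 1 common distribution: of the 300 highest ranks, 49.0% hold the same level in all 9 libraries within 0.001, and the other ranks differ by more. The number of reads behind a value is unknown. As a trace of depth, the count of miRNAs sitting at the lowest value of a library was 63 to 104 in WT, 101 to 152 in Hete KO and 102 to 141 in Homo KO. Endothelial miR-126a-3p was abundant, with a mean of 17.54, and the fat itself was not checked by a marker of adipocytes. The mean of 4 skeletal muscle miRNAs ran from 7.56 to 13.73 in WT, from 8.76 to 14.35 in Hete KO and from 6.17 to 11.68 in Homo KO. Hete KO replicate 2 had both the highest muscle mean and the most miRNAs at the lowest value, and Hete KO replicate 1 had an epithelial mean of 9.13 against 5.20 to 6.35 in the other 8 libraries.

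The family was dominated by the 5p arms, and among them by miR-181a-5p. This arm averaged 13.71 ± 0.18 (mean ± SD over 9 libraries) and ranked between 43 and 50 of 860. miR-181b-5p followed at 11.39 ± 0.13, miR-181d-5p at 11.01 ± 0.13 and miR-181c-5p at 8.50 ± 0.27. The 3p arms were far lower, at 6.29 ± 0.28 for miR-181a-1-3p, 4.17 ± 0.60 for miR-181c-3p and 1.13 ± 0.97 for miR-181a-2-3p. The order of the 7 members was the same in 9 of 9 libraries. Its narrowest step, from miR-181b-5p to miR-181d-5p, measured 0.37 ± 0.13 on the log2 scale (SD over 9 libraries, range 0.24 to 0.64), and every other step had a mean above 2. Whether the deposited levels were divided by length is not stated; the mature sequences are 22 to 24 bases long.

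**Figure D1:**
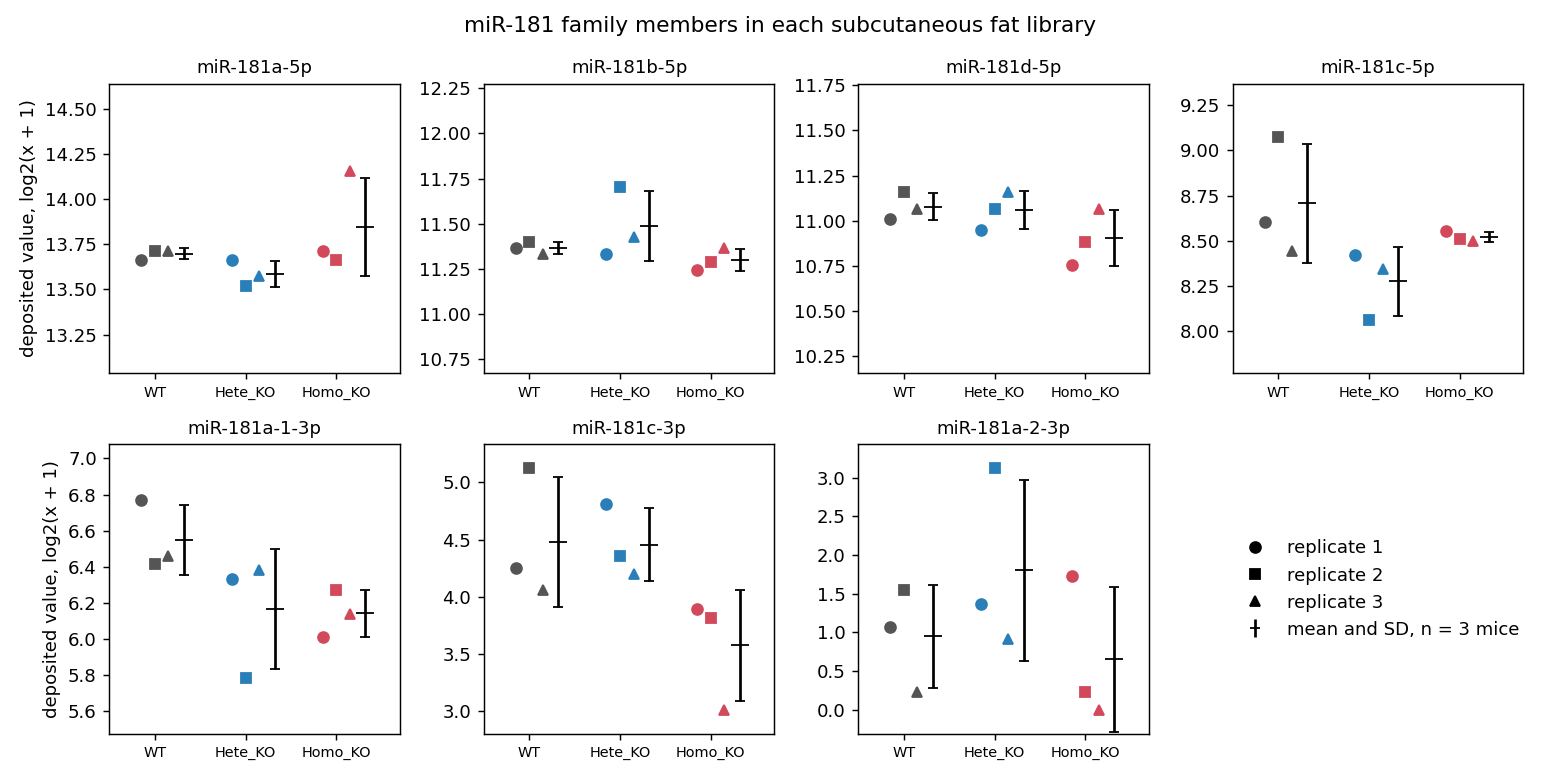
Deposited log2(x + 1) value (vertical axis, 1 scale per panel) of each miR-181 member in the 9 libraries, by genotype, with the replicate as the marker and the mean and SD of 3 mice beside it. The WT values of miR-181c-3p (4.05 to 5.12) and of miR-181a-1-3p (6.42 to 6.77) lie above all Homo KO values, while the values of miR-181a-5p, miR-181b-5p and miR-181d-5p overlap between WT and Homo KO.

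On the back-transformed scale (2 raised to the value, minus 1), the 7 members together held 0.279% ± 0.0067 of a WT library's summed value, 0.266% ± 0.0033 in Hete KO and 0.296% ± 0.0479 in Homo KO (SD, n = 3 each). The Hete KO libraries, at 0.263% to 0.269%, lay just below the WT range of 0.272% to 0.286%, and the Homo KO libraries stood at 0.270%, 0.267% and 0.352%. Within the family sum, miR-181a-5p accounted for 71.3% ± 0.89 in WT, 69.3% ± 2.7 in Hete KO and 75.0% ± 2.5 in Homo KO. For miR-181a-5p, the Homo KO libraries (72.8% to 77.8%) did not overlap WT (70.4% to 72.2%). The share of miR-181d-5p did not overlap either, but was lower in Homo KO (9.13% to 10.58%) than in WT (11.34% to 11.97%). Those of miR-181b-5p and miR-181c-5p overlapped. Within a sum, a higher share of 1 member lowers that of the rest. The values of miR-181a-5p itself overlapped between WT and Homo KO. Of all tested miRNAs, 32.7% did not overlap singly in that comparison. These shares follow from chosen members and were not tested.

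Comparison of the genotypes asks whether loss of endothelial Ago1 goes with another level of these miRNAs in fat on the same diet. No member passed in any of the 3 comparisons (limma over 489 tested miRNAs, Benjamini-Hochberg adjusted p under 0.05). Of the 7 members, 6 passed the filter on low values, and miR-181a-2-3p did not. In Homo KO against WT, 3.27% of all tested miRNAs were called, in Hete KO against WT 0.409% and in Homo KO against Hete KO 0%, so 0 of 6 members is close to the background in each. At an unadjusted p under 0.05, limma gave 1 of 6 members in each of the comparisons, beside 23.9%, 15.7% and 8.38% of all tested miRNAs. The 3 comparisons share libraries and are not independent of each other.

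**Figure D2:**
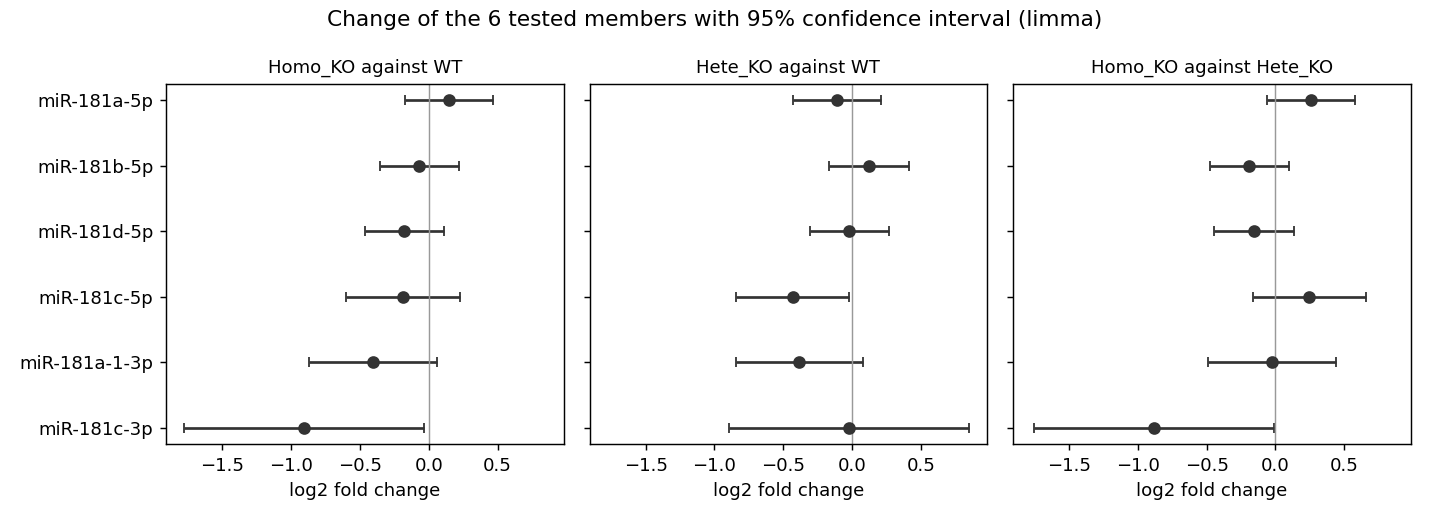
Log2 fold change (horizontal axis) of the 6 tested members in the comparisons of genotypes, with 95% confidence intervals from limma. The intervals of miR-181a-5p, miR-181b-5p and miR-181d-5p include 0 in all 3 comparisons, whereas that of miR-181c-3p in Homo KO against WT reaches from -1.78 to -0.03.

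miR-181a-5p, the family's most abundant guide, was at 13.66, 13.71 and 13.71 in WT, at 13.66, 13.52 and 13.57 in Hete KO and at 13.71, 13.66 and 14.16 in Homo KO. All but the last of these values lie close together, and the genotypes overlap or touch; WT replicate 1, Hete KO replicate 1 and Homo KO replicate 2 hold the same level. The log2 fold change was 0.15 ± 0.14 in Homo KO against WT (SE, 95% interval -0.17 to 0.47, limma adjusted p = 0.534). Without Homo KO replicate 3 it was -0.0084. In Hete KO against WT it was -0.11 ± 0.14 (interval -0.43 to 0.21, adjusted p = 0.769).

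miR-181b-5p, the guide studied most in vascular inflammation, was at 11.37, 11.40 and 11.34 in WT, at 11.34, 11.71 and 11.43 in Hete KO and at 11.24, 11.29 and 11.37 in Homo KO. Its highest value is that of Hete KO replicate 2, and the 3 genotypes overlap. The log2 fold change was -0.07 ± 0.13 in Homo KO against WT (SE, interval -0.36 to 0.22, limma adjusted p = 0.753) and 0.12 ± 0.13 in Hete KO against WT (interval -0.17 to 0.41, adjusted p = 0.706). Without Hete KO replicate 2 the latter was 0.013. A shift of miR-181b-5p in whole fat by more than 0.41 on the log2 scale in either direction lies outside both intervals.

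miR-181d-5p, which carries the same seed, was at 11.01, 11.16 and 11.07 in WT, at 10.95, 11.07 and 11.16 in Hete KO and at 10.76, 10.88 and 11.07 in Homo KO. The genotypes overlap, with Homo KO replicate 1 lowest. The log2 fold change in Homo KO against WT was -0.18 ± 0.13 (SE, interval -0.47 to 0.11, limma adjusted p = 0.431) and in Hete KO against WT -0.02 ± 0.13 (interval -0.31 to 0.27, adjusted p = 0.958). The difference between miR-181b-5p and miR-181d-5p was 0.29 ± 0.06 in WT, 0.43 ± 0.19 in Hete KO and 0.40 ± 0.09 in Homo KO (SD, n = 3 each), and the ranges overlap.

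miR-181c-5p, a guide that in rat heart cells was reported to enter mitochondria, was at 8.60, 9.08 and 8.45 in WT, at 8.42, 8.06 and 8.35 in Hete KO and at 8.55, 8.51 and 8.50 in Homo KO. Every Hete KO value lies below every WT and Homo KO value, with Hete KO replicate 1 and WT replicate 3 almost level. In Hete KO against WT the log2 fold change was -0.43 ± 0.18 (SE, interval -0.84 to -0.02, limma adjusted p = 0.284). It was -0.33 without Hete KO replicate 2 and -0.25 without WT replicate 2. In Homo KO against WT it was -0.19 ± 0.18 (interval -0.60 to 0.23, adjusted p = 0.541), or -0.0017 without WT replicate 2. For Homo KO against Hete KO the log2 fold change was 0.25 ± 0.18 (interval -0.17 to 0.66, adjusted p = 0.813).

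The passenger arm miR-181a-1-3p, which comes from chromosome 1 alone, was at 6.77, 6.42 and 6.46 in WT, at 6.33, 5.78 and 6.38 in Hete KO and at 6.01, 6.27 and 6.14 in Homo KO. All 6 knockout libraries were below all 3 WT libraries. The log2 fold change was -0.41 ± 0.21 in Homo KO against WT (SE, interval -0.87 to 0.06, limma adjusted p = 0.279) and -0.38 ± 0.21 in Hete KO against WT (interval -0.85 to 0.08, adjusted p = 0.397). With the count of miRNAs sitting at the lowest value (the depth count) as a covariate these were -0.17 and -0.15, and without Hete KO replicate 2 the second was -0.19. The depth count itself differed with genotype, with a mean of 79.0 in WT, 119 in Hete KO and 120 in Homo KO.

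miR-181c-3p, the passenger arm of miR-181c, was at 4.25, 5.12 and 4.05 in WT, at 4.81, 4.35 and 4.19 in Hete KO and at 3.89, 3.81 and 3.01 in Homo KO. Each Homo KO value was below each value of WT and of Hete KO, while WT and Hete KO overlap. The log2 fold change in Homo KO against WT was -0.90 ± 0.39 (SE, interval -1.78 to -0.03, limma adjusted p = 0.195), and in Homo KO against Hete KO -0.88 ± 0.39 (interval -1.75 to -0.01, adjusted p = 0.593). In Homo KO against WT it was -0.62 without Homo KO replicate 3, -0.58 without WT replicate 2 and -1.30 with the depth count as a covariate. These levels lie near the filter's limit of 3.46, and the part of depth in the difference was not tested beyond that covariate.

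miR-181a-2-3p, which comes from chromosome 2 alone, was at 1.06, 1.55 and 0.22 in WT, at 1.37, 3.12 and 0.91 in Hete KO and at 1.72, 0.22 and 0.00 in Homo KO. In 2 libraries, Homo KO replicates 2 and 3, it lay at the library's lowest value, and it was not tested. The chromosome 1 passenger exceeded it in 9 of 9 libraries, by 5.60 ± 0.69 in WT, 4.37 ± 1.49 in Hete KO and 5.49 ± 1.04 in Homo KO on the log2 scale (SD, n = 3 each), with overlapping ranges. The passengers of miR-181b, which are outside the 7 members, were nearly equal: miR-181b-1-3p averaged 3.43 and miR-181b-2-3p 3.42 over the 9 libraries, just under the filter's limit.

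Over the 6 tested members, 5 had negative log2 fold changes in Homo KO against WT, with a median of -0.18 beside 0.07 over all tested miRNAs. In Hete KO against WT 5 were negative as well, with a median of -0.07 beside -0.02. Groups without overlap were seen for 2 of the 6 members (33.3%) in Homo KO against WT, beside 32.7% of all tested miRNAs. Both, miR-181a-1-3p and miR-181c-3p, were lower, beside 14.3% of tested miRNAs that were lower without overlap. For Hete KO against WT the 2 were miR-181a-1-3p and miR-181c-5p, again lower, beside 17.2% in either direction and 8.59% lower. In Homo KO against Hete KO they were the arms of miR-181c, the 3p lower and the 5p higher, beside 12.3% in either direction.

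**Figure D3:**
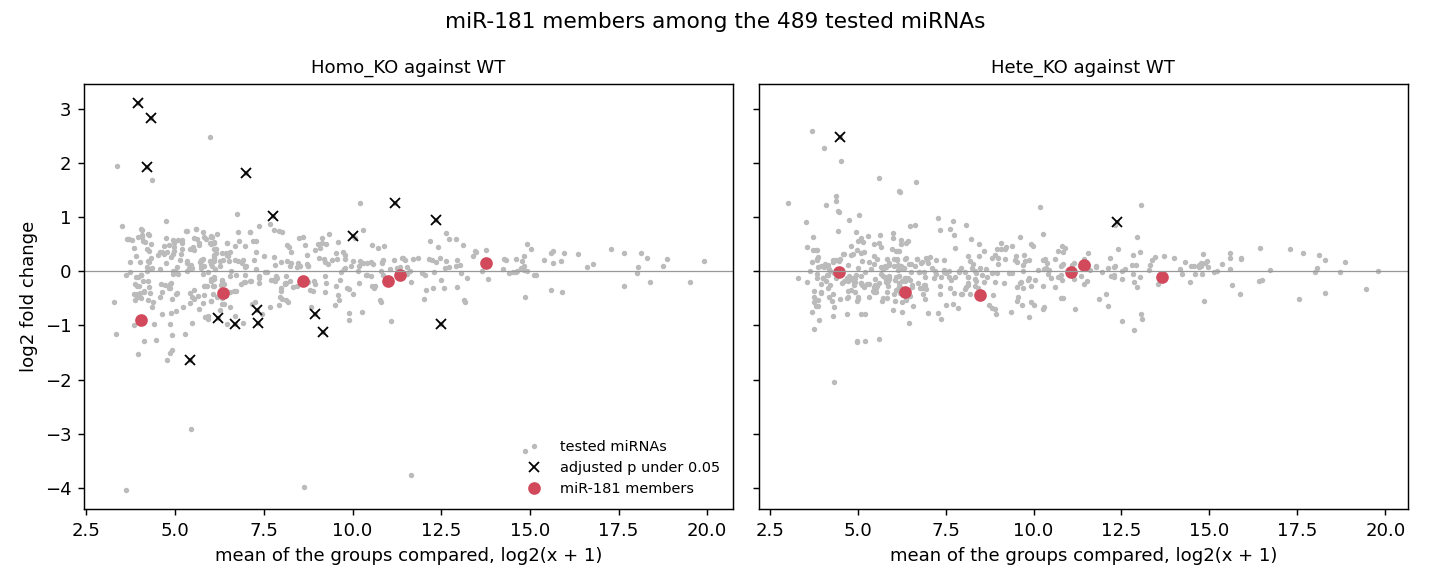
Log2 fold change (vertical axis) against the mean log2(x + 1) level of the groups compared (horizontal axis) for the 489 tested miRNAs, with called miRNAs as crosses and the miR-181 members as red points. The members lie within the cloud of miRNAs of like level, with miR-181c-3p lowest in Homo KO against WT at -0.90.

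Within a hairpin, a scaling that shifts all log2 values of a library alike leaves the gap between the arms unchanged. A step that brings the libraries to 1 common distribution can still change this gap. miR-181a-5p exceeded miR-181a-1-3p by 6.89, 7.30 and 7.26 in WT, by 7.33, 7.74 and 7.19 in Hete KO and by 7.70, 7.39 and 8.02 in Homo KO on the log2 scale. The Homo KO gaps are all wider than the WT gaps, by 0.55 on average, and the Hete KO gaps overlap both. Reads of miR-181a-5p from the chromosome 2 hairpin enter this gap as well. For miR-181c the gap between 5p and 3p was 4.35, 3.95 and 4.39 in WT, 3.61, 3.71 and 4.15 in Hete KO and 4.66, 4.70 and 5.49 in Homo KO. Again all Homo KO gaps are wider than those of WT, by 0.72 on average, and here Hete KO gaps tend below WT, with an average change of -0.41 and overlapping ranges.

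**Figure D4:**
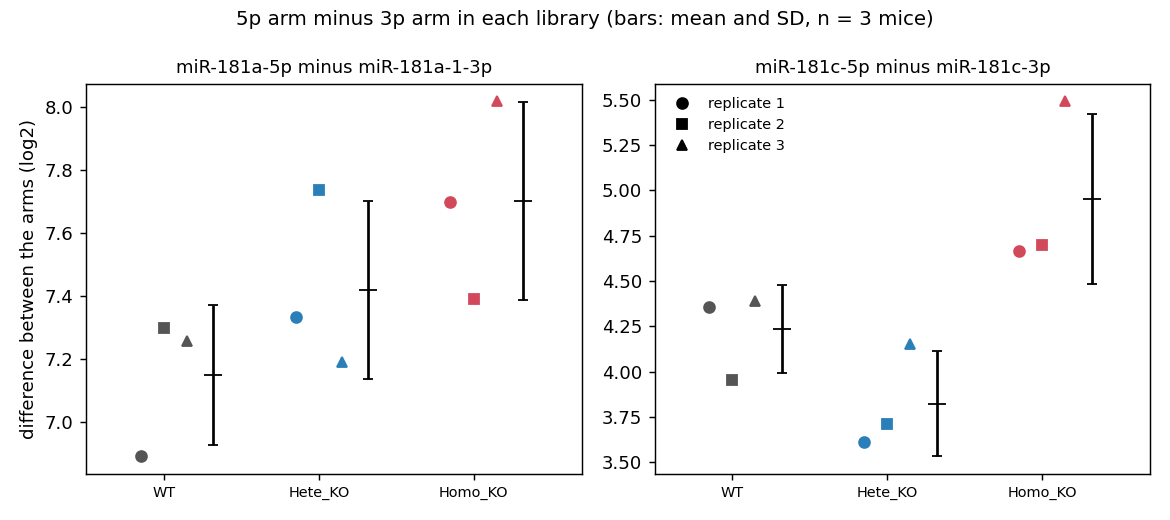
Difference between the 5p and the 3p arm of miR-181a (left) and miR-181c (right) on the log2 scale (vertical axis) in each library, with the mean and SD of 3 mice. Homo KO libraries lie at 7.39 to 8.02 and 4.66 to 5.49, above the WT libraries at 6.89 to 7.30 and 3.95 to 4.39.

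The same gap, taken as the abundant minus the rarer arm, was formed for 142 pairs of tested arms, the 2 miR-181 pairs among them. Apart from miR-181a, only arms whose names differ in 5p and 3p alone were paired. Other pairs in which an arm carries a locus number, such as let-7a-5p with let-7a-1-3p, are not among the 142. The miR-181a pair is thus not set against those hairpins. Its change in Homo KO against WT had a median of -0.01 over the 142 pairs, and it was wider in 67 of them (47.2%), so that the gaps showed no common direction. Gaps that were wider without overlap were seen in 12.7% of the pairs. Ordered from the most widened to the most narrowed gap, the miR-181c pair stood in place 10 and the miR-181a pair in place 16 of 142. In Hete KO against WT the miR-181c and miR-181a pairs stood in places 124 and 26 of the same order. In Homo KO against Hete KO they stood in places 1 and 26. There the miR-181c gap was wider by 1.13 on average, beside a median change of 0.06 over the 142 pairs. The gaps were looked at after earlier results were known and carry no test; the part of depth in them was not tested.

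**Figure D5:**
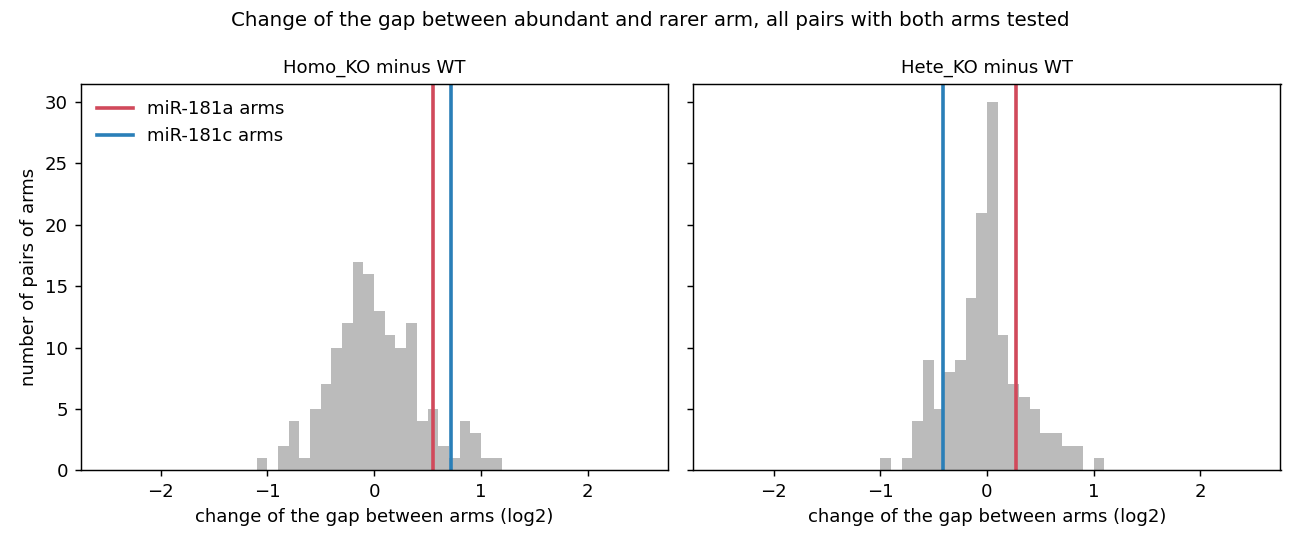
Number of pairs of arms (vertical axis) by change of the gap between abundant and rarer arm on the log2 scale (horizontal axis, bins of 0.1), with the miR-181a and miR-181c pairs as lines. In Homo KO minus WT both lines lie right of most pairs, at 0.55 and 0.72, and in Hete KO minus WT they lie on opposite sides of 0.

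Across the 9 libraries, which share their normalization, Pearson's r between pairs of the 6 tested members ran from -0.65 (miR-181a-5p with miR-181c-3p) to 0.53 (miR-181b-5p with miR-181d-5p). Between the abundant guides miR-181a-5p and miR-181b-5p it was -0.36, and between miR-181c-5p and miR-181a-1-3p 0.50. Of the tested miRNAs outside the family, the 5 most like miR-181b-5p all had miR-378 names: miR-378a-3p (r = 0.93), miR-378b (0.92), miR-378c (0.90), miR-378d (0.88) and miR-378a-5p (0.85). Much of this rests on Hete KO replicate 2 and Homo KO replicate 1, the libraries farthest from the median of miR-181b-5p, without which r was 0.47 to 0.66. Most like miR-181a-5p were let-7f-1-3p (r = 0.85), miR-365-3p (0.83), miR-103-2-5p (0.74), let-7b-3p (0.72) and miR-34a-5p (0.71). Without Hete KO replicate 2 and Homo KO replicate 3 these fell to between 0.01 and 0.54. These are descriptions over 9 libraries with no test.

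Other miRNAs reported to act on NF-κB signalling, adhesion molecules or leukocyte recruitment in endothelium or macrophages were listed for comparison, and 28 of 29 were tested. In Homo KO against WT, 1 was higher and 1 lower of these 28 (limma, adjusted p under 0.05), beside 3.27% of all tested miRNAs called, with a median log2 fold change of 0.05 beside 0.07 over all tested miRNAs. The riser was miR-203-3p (0.95 ± 0.18, SE, adjusted p = 0.0314), which is also abundant in skin epithelium, and the faller was miR-221-3p (-0.96 ± 0.21, adjusted p = 0.0424), known from endothelium and proliferating cells. Neither call held with the depth count as a covariate, and no miRNA at all was called with it. That count was 63 to 104 in WT and 102 to 141 in Homo KO, so the count and genotype can hardly be told apart there. How far the count reflects the depth of sequencing was not tested. None was called in Hete KO against WT or in Homo KO against Hete KO, with limma medians of -0.02 and 0.09. The most abundant of the list, miR-143-3p of mural cells, miR-21a-5p and endothelial miR-126a-3p, had log2 fold changes of 0.19 ± 0.19, -0.20 ± 0.22 and -0.27 ± 0.19 in Homo KO against WT (SE) and were not called.

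Marker miRNAs of other cell types were read beside these values. The mean of the 7 leukocyte miRNAs ran from 11.37 to 11.51 in WT, from 10.94 to 11.59 in Hete KO and from 11.57 to 11.85 in Homo KO, and 1 of the 7, miR-142a-5p, rose in Homo KO against WT (1.26 ± 0.25, SE, limma adjusted p = 0.0314), beside 3.27% of all tested miRNAs called; this call was also lost with the depth count as a covariate. The other most abundant leukocyte miRNAs, miR-150-5p, miR-146a-5p and miR-223-3p, were not called. Of the 7, 5 had positive and 2 negative log2 fold changes: miR-142a-3p, from the hairpin of the riser, stood at 0.22 ± 0.27 and miR-150-5p at 0.71 ± 0.22, against -0.77 ± 0.32 for miR-342-3p and -0.07 ± 0.18 for miR-155-5p (SE). The endothelial mean of both miR-126a arms ran from 16.31 to 16.66 in WT, from 15.68 to 16.05 in Hete KO and from 16.03 to 16.19 in Homo KO, with neither arm called. The epithelial mean of 3 miR-200 family members was 5.20 to 5.84 in WT, 5.86 to 9.13 in Hete KO and 6.14 to 6.29 in Homo KO. The erythroid mean of miR-451a and miR-486a-5p was 11.97 to 12.67 in WT, 10.69 to 12.31 in Hete KO and 11.57 to 11.89 in Homo KO. No member of either list was called. Leukocyte and epithelial means were thus higher, and endothelial and erythroid means lower, in all Homo KO libraries than in all WT libraries. Beside this, 32.7% of all tested miRNAs, taken singly, did not overlap in that comparison. The epithelial and endothelial means of all Hete KO libraries also lay outside WT, in the same directions. The leukocyte miRNAs did not move in 1 direction, and the part of these cell types in the miR-181 values was not tested.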

How the data were processed

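Each file gives 1 value per mature miRNA for 1 mouse. Trizol extraction and the TruSeq small RNA kit are named in the protocols, per the labels; per the submitters' processing notes the build was mm10. No source used here names the aligner, the counting or the normalization. The authors' deposited values are on a log2 scale: file names speak of FPKM, but values run from 0 to 19.99, and back-transformed values sum to nearly the same total (6681250 to 6681288) in each library, much as after quantile normalization of log2(x + 1) values, although 49.0% of the 300 highest ranks hold the same level in all libraries. Depth is unknown, so no counting interval is given.

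The test was that of limma 3.58.1, run in R 4.3.3 (all 9 libraries, no covariate, variance trend), with Benjamini-Hochberg adjustment over 489 miRNAs found above the lowest value of at least 3 libraries and with a mean of at least 3.46, which is log2(10 + 1). The remaining 371 were not tested. Steps were tested on simulated data. Sequences come from RefSeq (GRCm38.p6) and hairpin positions from GENCODE vM21. Members, lists and tests were chosen with earlier results of these data known. All members were named, with the 5 miRNAs most correlated with each of miR-181a-5p and miR-181b-5p, and the called and 3 most abundant members of each list. Alternatives varied the added constant, filter, scaling, variance model, weights, block, libraries and covariates. Figures were drawn with matplotlib 3.10.9.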

Additional observations from a re-analysis of the deposited data

How the results depend on the processing

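The count of 0 called miR-181 members held in each comparison under all 20 alternatives, which include leaving out each library in turn; over 354 fold changes of members in them, the lowest limma adjusted p was 0.0907. Uncalled fold changes near 0 changed sign in 13 of the 354. In Hete KO against WT, miR-181d-5p was at 0.064 with sample weights, miR-181c-3p at 0.010 with the muscle covariate, and miR-181a-5p at 0.031 and miR-181b-5p at -0.011 with the depth covariate.
Leaving out each library in turn gave -0.0084 to 0.24 for miR-181a-5p and -0.32 to -0.0017 for miR-181c-5p in Homo KO against WT, 0.013 to 0.20 for miR-181b-5p, -0.070 to 0.034 for miR-181d-5p and -0.23 to 0.30 for miR-181c-3p in Hete KO against WT, and -0.21 to 0.085 for miR-181a-1-3p in Homo KO against Hete KO. The widening of the gap between arms in Homo KO ranged from 0.40 to 0.71 for miR-181a and from 0.45 to 0.86 for miR-181c without 1 library, and was 0.51 and 0.40 with 10 as the added constant, an alternative chosen after seeing the data. With the stricter filter miR-181a-1-3p and miR-181c-3p were not tested.

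The background of called miRNAs moved more. In Homo KO against WT, 16 calls became 9 with no filter, 25 with the stricter filter, 74 with sample weights, 3 with the muscle covariate and 0 with the depth covariate. They ranged from 2 to 25 without 1 library: 3 and 7 without WT replicates 1 and 2, 25 and 6 without Hete KO replicates 2 and 3, and 2, 3 and 2 without Homo KO replicates 1, 2 and 3. In Hete KO against WT, 2 calls became 10 with the stricter filter, 34 with sample weights, 1 with no variance trend, 1 with only the groups compared and 0 with the depth covariate. They ranged from 1 to 24 without 1 library: 24 without Hete KO replicate 1, 12 without WT replicate 3, and 1 without WT replicate 1, Hete KO replicate 2 or 3, or Homo KO replicate 3. The cause was not tested. With the replicate number as a block, the calls were 25 in Homo KO against WT and 15 in Hete KO against WT, and no member was called. Same-numbered libraries did not deviate together throughout (r of -0.28 to 0.55 over 9 pairs, beside -0.70 to 0.54 for pairs of unlike number). These values do not settle whether the numbers mark a pairing. Depth is unknown, so the precision of the lowest members could not be stated.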
